A study of Mus musculus with 8 samples.

Results

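The transcripts described here are those of Ddit4 and of 8 other genes whose products restrain the growth kinase mTOR: Ddit4l, Sesn1, Sesn2, Sesn3, Deptor, Tsc1, Tsc2 and Akt1s1. They were measured in the liver of newborn mice lacking glycerol kinase, the enzyme that phosphorylates glycerol. Members were taken by gene symbol, which gave 25 probe sets of the 45037 that are not array controls. Ddit4 was chosen on its signal in knockout against wild type and on its course over the 8 arrays, so both are given as a description with no test for any member. The groups were 4 glycerol kinase knockout pups and 4 wild-type littermates. All were inbred C57BL/6J mice labelled male, killed at day of life 3, and each liver was hybridised alone to an Affymetrix Mouse 430 2.0 array. The knockout is of the whole animal and the labels name no treatment. Values are linear signal intensities, scaled by the authors to a common target on every array. Signals of different probe sets cannot be set against each other as levels of their genes.

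The mTOR complex 1 joins signals of insulin, amino acids, energy and oxygen, and drives protein synthesis and growth while it holds back autophagy. Ddit4 (also called REDD1) releases the TSC1 and TSC2 proteins from 14-3-3 proteins, and the TSC complex then switches off Rheb, the small GTPase that activates the kinase. Sestrins act on the amino acid branch through the GATOR complexes, and Deptor and Akt1s1 (PRAS40) are inhibitory proteins bound to the kinase complex itself. In liver, Ddit4 is known as a transcript induced by glucocorticoids, by the amino acid response factor ATF4 and by hypoxia.

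The arrays differed in ways that touch these genes. Control probe sets for the transferrin receptor gave a 3'/5' signal ratio between 6.50 and 6.72 on replicates 1 and 2 of both genotypes and between 4.21 and 4.83 on replicates 3 and 4. The labels name no batch. The same ratio for pyruvate carboxylase was 7.03 on knockout 1 and 4.93 on knockout 2, against 2.06 to 3.46 on the other arrays. For actin it ran from 1.21 to 1.74 over all arrays, with 1.74 on knockout 1 and 1.27 on knockout 2. For GAPDH it ran from 0.765 to 0.896. The array labelled wild type 4 had an Xist signal of 10506 and an Eif2s3y signal of 1.3, against 196 to 396 and 685 to 1164 on the other arrays, the pattern of a female. The disrupted gene itself was not analysed here. Of 11 hepatocyte markers 9 were measured, albumin among them, and their summed signal ran from 171730 to 215742 on the wild-type arrays and from 190708 to 248025 on the knockout arrays. The log2 difference, knockout minus wild type, lay above 0 for all 9 (median 0.10). It lay below 0 for all 7 erythroid markers measured (median -0.10). Over all genes tested 46.5% lay above 0. In whole liver, fewer cells of a type and less RNA per cell cannot be told apart.

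Ddit4 was the 1 member whose knockout arrays all lay above the wild-type arrays, and it was chosen on this contrast. Over all 20395 probe sets tested, the groups did not overlap in 9.32%, counting both directions. The Ddit4 probe set read 331, 341, 373 and 511 on wild type 1 to 4 and 2640, 1580, 1934 and 696 on knockout 1 to 4. Knockout 1 was the highest and knockout 4 came closest to wild type, where replicate 4 was also the highest. The mean was 389 ± 83.3 on the wild-type arrays and 1713 ± 808 on the knockout arrays (SD, n = 4 each), a ratio of 4.40. On the scale of log2(signal + 16) the difference was 1.96 ± 0.34 (SE). It was 2.55 between replicates 1 and 2 and 1.38 between replicates 3 and 4. The pyruvate carboxylase ratio was 7.03, 4.93, 2.07 and 2.06 on knockout 1 to 4, and its part in the Ddit4 signal was not tested. Without the array labelled wild type 4 the difference was 2.10. The median difference of the hepatocyte markers was 0.32 in replicates 1 and 2 and -0.09 in replicates 3 and 4, and that of 7 erythroid markers -0.55 and 0.18. The part of cell composition in the Ddit4 difference was not tested.

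**Figure D1:**
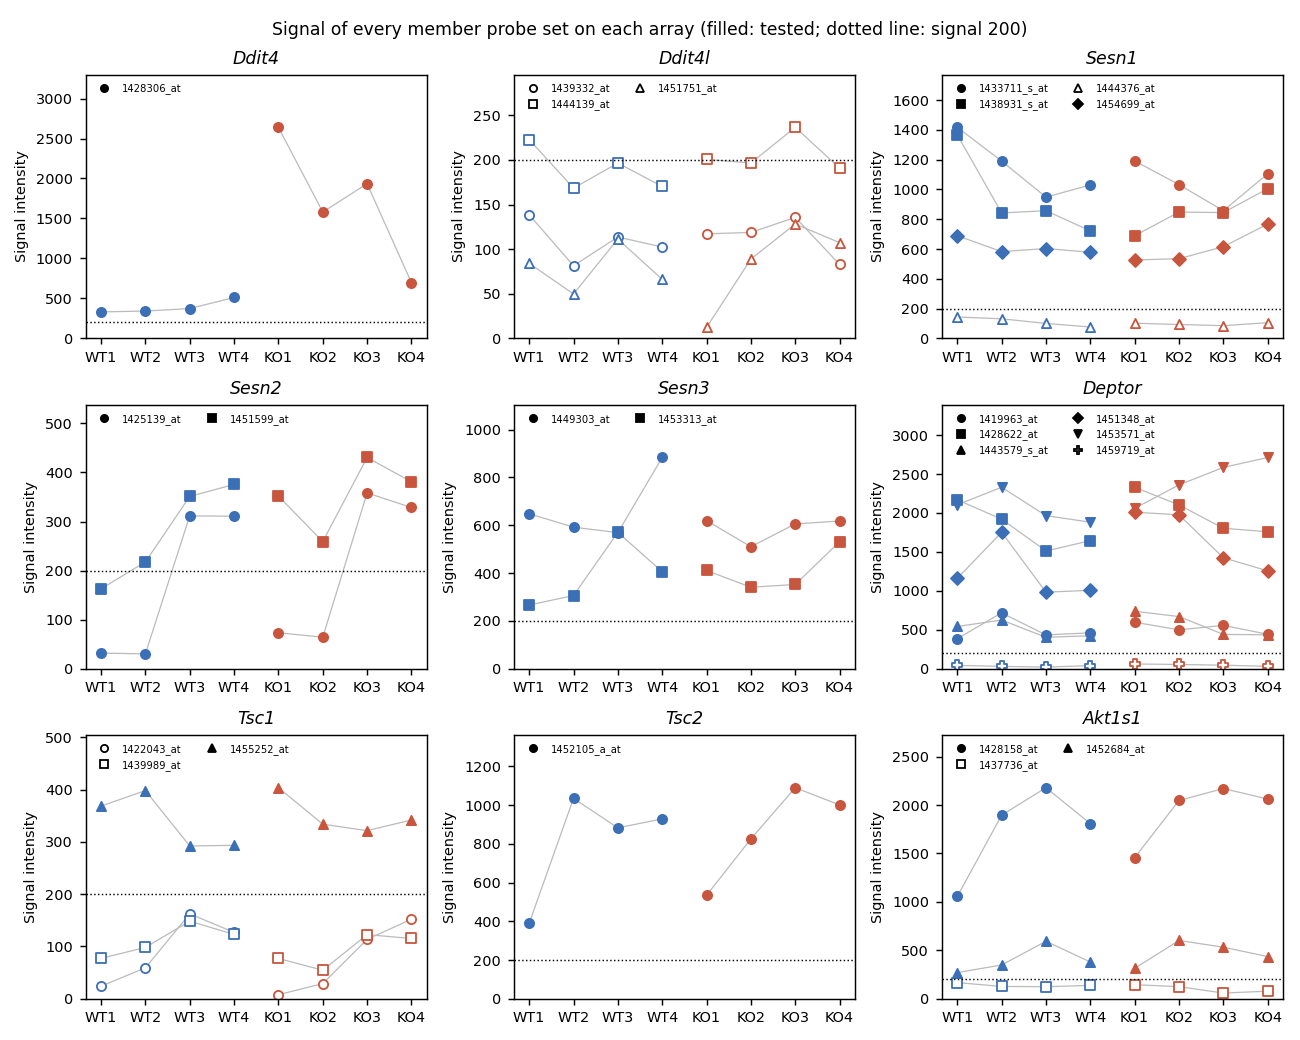
Signal intensity of all 25 probe sets of the 9 genes on each of the 8 arrays, wild type in blue and knockout in red, with filled markers for probe sets that were tested and a dotted line at the signal of 200. Ddit4 separates the genotypes (331 to 511 against 696 to 2640), and in every other panel the genotypes overlap. Ddit4 was chosen on this contrast, and the groups did not overlap in 9.32% of all probe sets tested.

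A promoter sequence was held for 8 of the 9 genes in the RefSeq table for GRCm38.p6. Those of Ddit4, of its paralog Ddit4l and of Sesn2 are shown to set the gene with the largest difference beside its paralog and beside a sestrin known to answer to ATF4. Each is the 250 bases before the annotated start, 5′ to 3′ on the strand of the gene. Ddit4 lies at chr10:59951771-59952020 on the minus strand, Ddit4l at chr3:137623422-137623671 on the plus strand, and Sesn2 at chr4:132510457-132510706 on the minus strand. Capitals mark matches, on either strand, to the short motifs named after the sequences.
Ddit4: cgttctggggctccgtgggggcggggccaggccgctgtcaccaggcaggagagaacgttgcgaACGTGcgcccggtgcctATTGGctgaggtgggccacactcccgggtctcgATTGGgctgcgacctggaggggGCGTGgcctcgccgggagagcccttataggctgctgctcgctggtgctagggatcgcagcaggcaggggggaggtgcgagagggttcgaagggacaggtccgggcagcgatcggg
Ddit4l: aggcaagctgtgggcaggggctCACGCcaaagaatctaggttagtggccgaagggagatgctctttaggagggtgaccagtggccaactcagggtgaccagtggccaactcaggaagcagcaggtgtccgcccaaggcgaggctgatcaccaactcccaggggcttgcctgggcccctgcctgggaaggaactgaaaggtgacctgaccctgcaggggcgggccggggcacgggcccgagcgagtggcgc
Sesn2: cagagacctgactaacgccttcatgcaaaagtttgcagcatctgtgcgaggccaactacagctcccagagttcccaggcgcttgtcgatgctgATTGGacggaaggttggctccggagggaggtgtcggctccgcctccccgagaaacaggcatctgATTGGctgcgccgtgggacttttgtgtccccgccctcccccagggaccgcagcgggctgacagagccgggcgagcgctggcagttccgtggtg

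The Ddit4 window held 1 match to ACGTG, a core of hypoxia factor sites, 187 bases before the start, which 16.6% of all 32851 windows of this length hold. It also held 1 match to the variant core GCGTG (28.2% of windows) and 2 to the box read as CCAAT (33.8%), which appears as its reverse complement. The Ddit4l window held 1 match, to the GCGTG core, and the Sesn2 window 2, both to the CCAAT box, all as the reverse complement. No match in any of the 3 windows overlapped another. The glucocorticoid receptor hexamer AGAACA (16.1% of windows), the composite TGATGNAA read by ATF4 with a C/EBP factor (3.45%) and the TATA element TATAAA (12.4%) were not found in the windows of the 8 genes. These letters describe a short window only.

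Ddit4l, the paralog of Ddit4 and likewise an inhibitor of mTOR signalling, stayed at low signal. A probe set was tested where at least 4 arrays reached a signal of 200, and none of the 3 for Ddit4l did. The brightest read 223, 168, 197 and 170 on the wild-type arrays and 201, 197, 237 and 191 on the knockout arrays, and the groups overlapped. The signal it reached on at least 4 arrays, 197, was the nearest below the minimum. The nearest above was that of a Sesn2 probe set, at 311. From the fit without a minimum the 3 differences were 0.12 ± 0.19, 0.05 ± 0.26 and -0.10 ± 0.49 on the log2 scale (SE).

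Sesn1, a sestrin induced by p53 and FOXO factors, did not separate the genotypes. The brightest of its 4 probe sets read 1418, 1191, 949 and 1031 on the wild-type arrays and 1192, 1033, 858 and 1106 on the knockout arrays, a log2 difference of -0.12 ± 0.17 (SE). The other tested probe sets gave -0.13 ± 0.20 and -0.02 ± 0.15. In both of these the sign turned between the replicates, from -0.48 and -0.25 in replicates 1 and 2 to 0.22 and 0.21 in replicates 3 and 4. Sesn3, the sestrin known as a FOXO target, read 648, 592, 569 and 884 on the wild-type arrays and 619, 510, 606 and 618 on the knockout arrays on its brighter probe set (-0.17 ± 0.16). The second probe set ran from 266 to 570 in wild type and from 341 to 531 in the knockout (0.11 ± 0.24). Both Sesn3 probe sets overlapped between the genotypes.

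Sesn2, the sestrin that binds leucine and is induced by ATF4 and NRF2, varied more between replicates than between genotypes. Its probe set 1425139_at read 31.6, 29.9, 312 and 311 on wild type 1 to 4 and 73.0, 64, 358 and 329 on knockout 1 to 4. All 4 arrays of replicates 3 and 4 lay above all 4 of replicates 1 and 2, whatever the genotype. The means were 327 and 49.6, a ratio of 6.60. A test of replicates 3 and 4 against 1 and 2, with genotype in the model, gave a log2 difference of 2.45 ± 0.24 (SE; limma adjusted p = 0.00269 over all probe sets tested). This probe set reached the minimum through replicates 3 and 4 alone, so it had to differ between them. With no minimum, over all 45037 probe sets, the limma adjusted p was 0.00328.

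The second Sesn2 probe set, 1451599_at, read 163, 217, 351 and 376 on the wild-type arrays and 352, 259, 431 and 381 on the knockout arrays. Here the same comparison of replicates gave 0.65 ± 0.18 (SE; limma adjusted p = 0.0882), and the replicates overlapped. Between the genotypes the Sesn2 probe sets differed by 0.49 ± 0.80 and 0.40 ± 0.27 on the log2 scale (SE), with overlapping groups. The transferrin receptor ratio was high on the arrays where 1425139_at was low, and the part of that ratio in the Sesn2 signal was not tested.

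**Figure D2:**
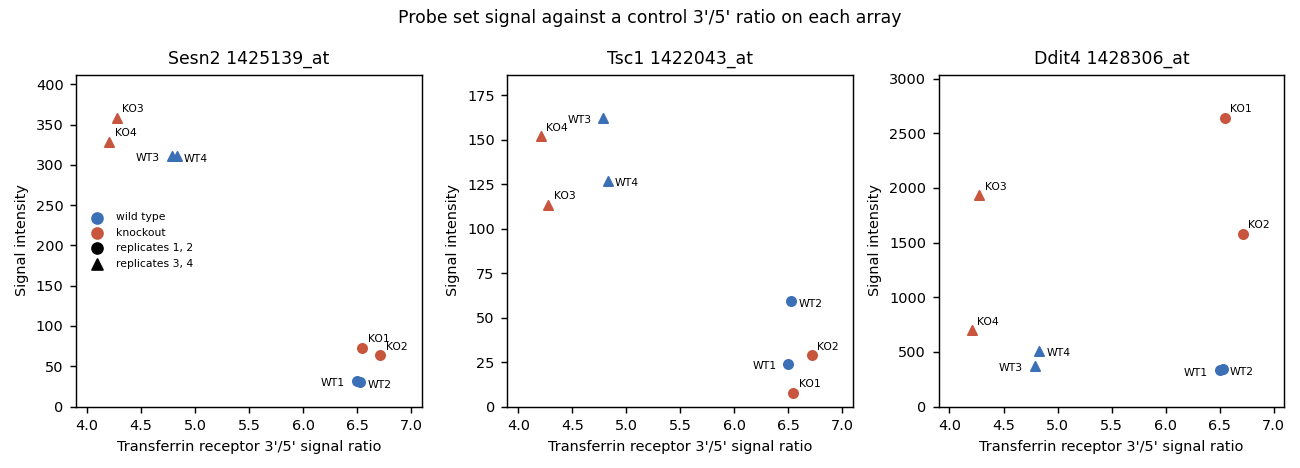
Signal intensity of a Sesn2, a Tsc1 and the Ddit4 probe set on each array (vertical axes) against the 3'/5' signal ratio of the transferrin receptor control (horizontal axes), circles for replicates 1 and 2 and triangles for replicates 3 and 4. Sesn2 1425139_at lies between 29.9 and 73.0 where the ratio is 6.50 or more and between 311 and 358 where it is 4.83 or less, while Ddit4 follows genotype.

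Deptor, an inhibitory subunit of both mTOR complexes, had 5 tested probe sets. All 5 differences between knockout and wild type lay above 0, from 0.10 to 0.45 on the log2 scale, and in all 5 the groups overlapped. The largest, of 1451348_at, came from signals of 1159, 1751, 982 and 1006 on the wild-type arrays and 2010, 1975, 1424 and 1255 on the knockout arrays (0.45 ± 0.22 SE). Within each pair of replicates the knockout arrays lay above the wild-type ones for this probe set, with 0.48 in replicates 1 and 2 and 0.42 in replicates 3 and 4. The brightest probe set, 1453571_at, differed by 0.23 ± 0.14, which was -0.01 in replicates 1 and 2 and 0.46 in replicates 3 and 4. Probe set 1443579_s_at was lower in replicates 3 and 4 by the test of replicates, at 402 to 439 against 541 to 736 (-0.57 ± 0.12 SE; limma adjusted p = 0.0435). That call was lost without any 1 of 7 arrays, the exception being wild type 1. Probe set 1428622_at read 2168, 1920, 1511 and 1644 on the wild-type arrays against 2330, 2103, 1803 and 1759 for the knockout. The difference of 0.15 ± 0.16 was smaller than that of replicates 3 and 4 from replicates 1 and 2 (-0.34 ± 0.11 SE; limma adjusted p = 0.136), which did not pass. Another probe set, 1459719_at, stayed below a signal of 60 and was not tested.

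Akt1s1 encodes PRAS40, which binds raptor and blocks mTOR complex 1 until AKT phosphorylates it. Its brightest probe set read 1056, 1896, 2179 and 1808 on the wild-type arrays and 1457, 2047, 2171 and 2062 on the knockout arrays, a log2 difference of 0.19 ± 0.23 (SE). In both genotypes replicate 1 was the lowest. The second tested probe set ran from 271 to 594 and from 315 to 602, with replicate 1 again the lowest in both genotypes (0.25 ± 0.26), and the remaining one, at 58.9 to 166, was not tested.

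Tsc1 and Tsc2 encode the subunits of the complex through which Ddit4 acts. Tsc2 read 389, 1034, 882 and 928 on the wild-type arrays and 534, 825, 1089 and 1000 on the knockout arrays, a log2 difference of 0.13 ± 0.31 (SE). Replicate 1 was the lowest in both genotypes. Tsc1 was tested by 1 probe set, at 368, 398, 292 and 293 on the wild-type arrays and 404, 334, 321 and 342 on the knockout arrays (0.06 ± 0.16). Its other probe sets stayed under the minimum. One of them, 1422043_at, read 7.8 to 59.1 on replicates 1 and 2 and 114 to 162 on replicates 3 and 4, as Sesn2 1425139_at did. With no minimum the test of replicates gave 1.86 ± 0.32 (SE; limma adjusted p = 0.0225) for 1422043_at. For 1439989_at, also under the minimum, it gave 0.64 ± 0.22 (limma adjusted p = 0.148). The brighter Tsc1 probe set that was tested, 1455252_at, went the other way (-0.26 ± 0.14 SE; limma adjusted p = 0.317).

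Taken over the 9 genes, 17 probe sets of 8 genes were tested and 8 were not. The rule that chose Ddit4 used this contrast, so the counts between genotypes are a description of the choice. The 1 past the threshold (limma, Benjamini-Hochberg adjusted p under 0.05, higher in knockout) was that of Ddit4, beside 0.147% of all 20395 probe sets tested. It was also the 1 whose groups did not overlap, beside 9.32% of all. Nothing is read from these counts. The 16 other tested probe sets ran from -0.17 to 0.49 on the log2 scale with a median of 0.14, against a median of -0.03 over all probe sets. Above 0 lay 12 of the 16, beside 45.8% of all probe sets tested. Every tested Deptor probe set is among the 12, so they are not separate genes.

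Between replicates 3 and 4 and replicates 1 and 2, 2 of the 17 passed the threshold, beside 2.47% of all probe sets tested. At an unadjusted p under 0.05 there were 6, beside 20.9% of all. In the fit without a minimum 3 of the 25 passed, beside 2.72%. Whether the genotype effect differed between the replicate pairs was examined with an interaction term. None of the 16 tested probe sets other than that of Ddit4 passed (limma adjusted p between 0.522 and 0.955, beside 0.00981% of all probe sets), and none had an unadjusted p under 0.05, beside 9.92%. For Ddit4, whose course over the arrays was known when it was chosen, the interaction is given with no test: -1.17 ± 0.60 on the log2 scale (SE), the genotype difference being the smaller one in replicates 3 and 4.

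**Figure D3:**
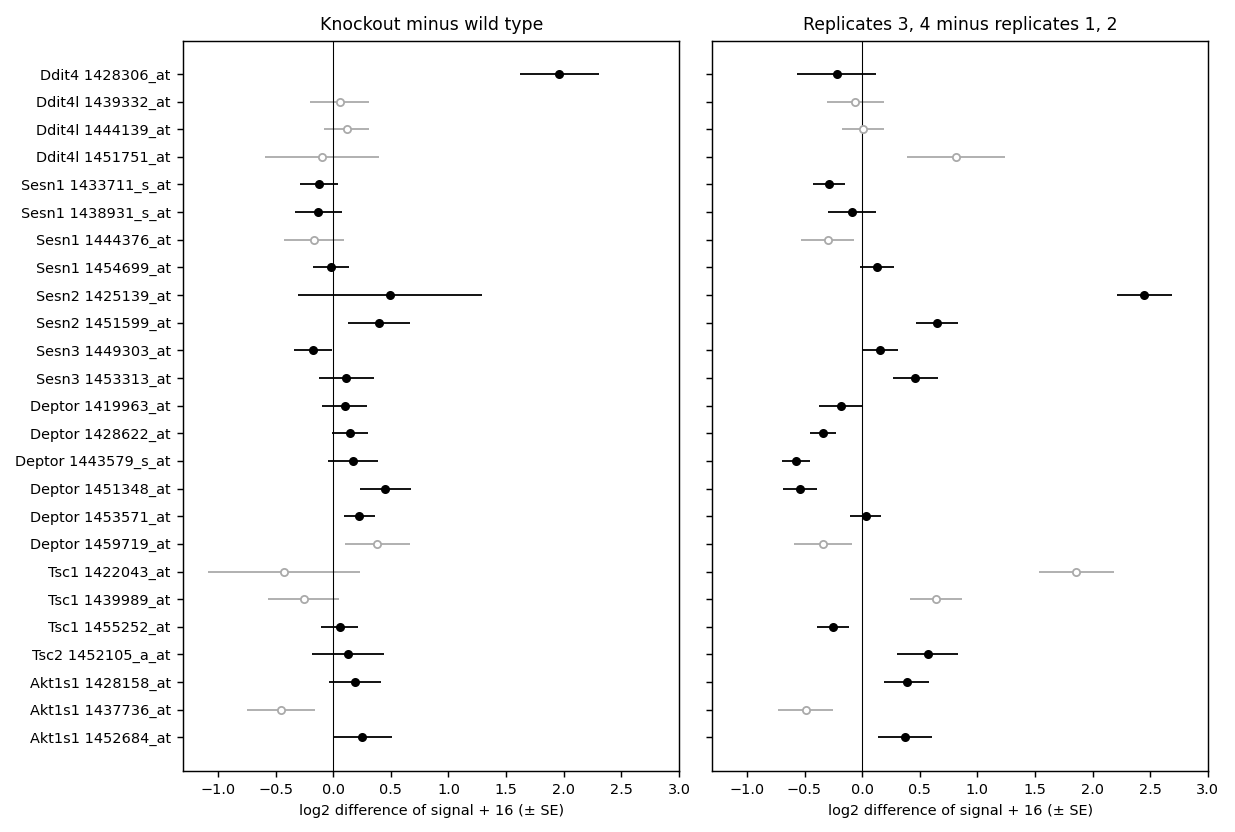
Log2 difference of signal + 16 with its standard error for the 25 probe sets of the 9 genes, knockout minus wild type on the left and replicates 3 and 4 minus replicates 1 and 2 on the right, filled for tested and open for not tested. On the left Ddit4 stands alone at 1.96, and on the right Sesn2 1425139_at (2.45) and Tsc1 1422043_at (1.86) stand farthest from 0.

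The rest of the mTOR circuit was examined with 9 gene lists, from the kinase complexes to their inputs and substrates, each gene read by its brightest tested probe set. Of 98 genes outside the members 82 were measured, and 0 rose and 0 fell in the knockout (limma adjusted p between 0.107 and 0.995). The corresponding shares were 0.12% higher and 0.156% lower over all 10878 genes tested. At an unadjusted p under 0.05 there were 12 of 82 (14.6%), against 15.5% of all genes, and 8 had groups that did not overlap (9.76%), against 10.3%. The median difference was 0.11 on the log2 scale, against -0.02 over all genes. In 73 of the 82 the difference was within 0.5 of 0.

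Of the kinase complexes, the gene of the kinase itself, Mtor, read 806, 1123, 969 and 1045 on the wild-type arrays and 1469, 1644, 1377 and 1291 on the knockout arrays. The knockout arrays all lay above the wild-type arrays, with a log2 difference of 0.55 ± 0.15 (SE; limma adjusted p = 0.133), but the second Mtor probe set gave 0.13. Rptor, the scaffold of complex 1, differed by -0.17 ± 0.13 and Rictor, that of complex 2, by 0.05 ± 0.14, with -0.33 for its other probe set. Mlst8, shared by both, differed by -0.08 ± 0.18. Rheb, the GTPase that the TSC complex switches off, differed by 0.25 ± 0.14. None of these 5 genes passed the threshold.

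Among amino acid sensing parts, Lamtor1, which anchors the Rag GTPases to the lysosome, had signals of 4511 ± 169 on the wild-type arrays and 3534 ± 126 on the knockout arrays (SD, n = 4; log2 difference -0.35 ± 0.10 SE; limma adjusted p = 0.170). Nprl2, a subunit of the inhibitory GATOR1 complex, stood at 338 ± 57.2 and 550 ± 116 (0.67 ± 0.19; adjusted p = 0.146). For both genes the groups did not overlap. Of the AMPK and LKB1 list, Cab39 (0.33) and Prkag2 (-0.39) had the smallest p. Irs2, the insulin receptor substrate, read 164 to 213 on the wild-type arrays and 292 to 331 on the knockout arrays (0.71 ± 0.17; limma adjusted p = 0.107). It had the smallest p of the 82.

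Of the effector arm, the translation repressor Eif4ebp1 differed by 0.20 ± 0.20 on the log2 scale, Eif4ebp2 by 0.33 ± 0.28 and the S6 kinase gene Rps6kb2 by -0.02 ± 0.21. Eef2k, the kinase of elongation factor 2, differed by -0.64 ± 0.34. Lpin1, a phosphatidate phosphatase that mTOR complex 1 phosphorylates, had the largest difference of the 82 (1.64 ± 0.51 SE; limma adjusted p = 0.189). Its knockout signals were 9718, 5122, 3753 and 1155, and knockout 4 lay within the wild-type range of 943 to 1768. Of the 4 measured genes listed for the ligase that marks the Ddit4 protein for degradation, none passed. Cul4b (-0.63 ± 0.21) and Btrc (-0.43 ± 0.15) had the smallest p, while Cul4a differed by 0.25 ± 0.17 and Ddb1 by -0.11 ± 0.12. The other tested Cul4b probe set gave 0.20. Autophagy and lysosome genes driven by TFEB, which mTOR complex 1 keeps out of the nucleus, had a median of 0.17 with 19 of 24 above 0. Over all genes tested 46.5% lay above 0. None of the 24 passed. Map1lc3b (0.54 ± 0.17) and Lamp2 (0.49 ± 0.17) had the smallest p of the 24. The tested probe sets of Map1lc3b ran from 0.40 to 0.54 and those of Lamp2 from 0.06 to 0.66. The medians of this list on knockout 1 to 4 against the wild-type mean were 0.42, 0.23, 0.08 and 0.06, and the pyruvate carboxylase ratio had the same order. Its part in this list was not tested.

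**Figure D4:**
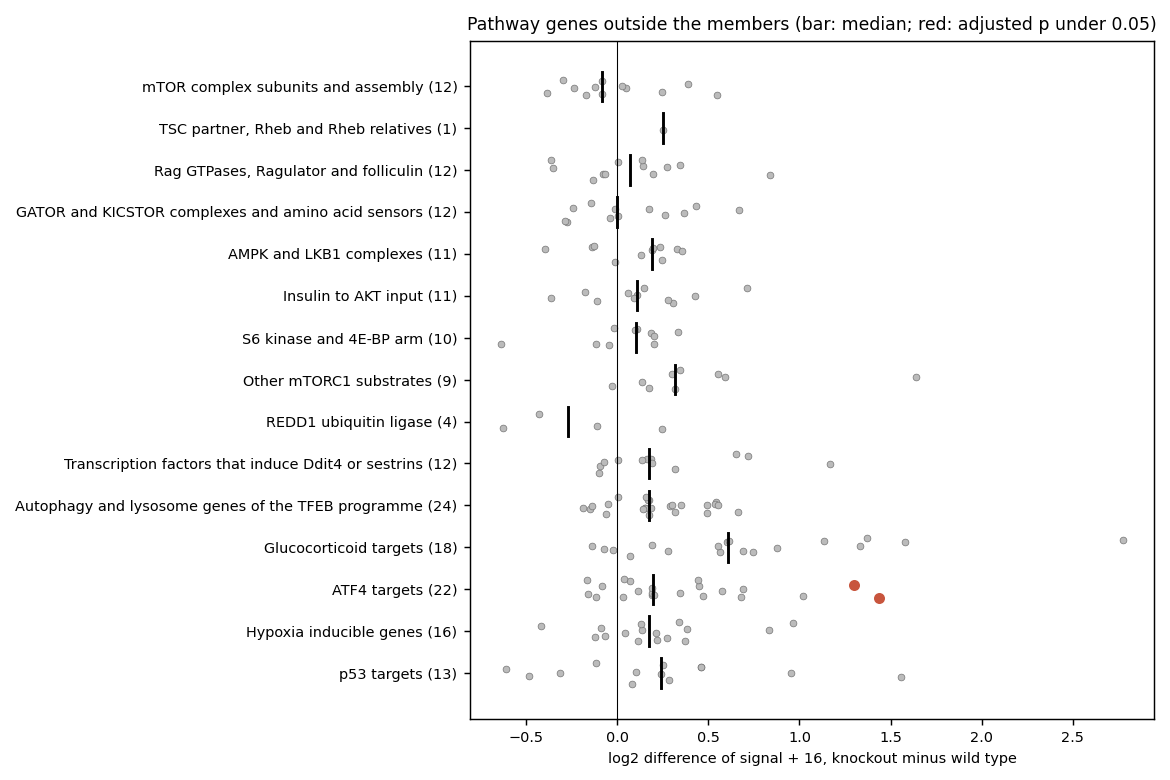
Log2 difference of signal + 16, knockout minus wild type, of each measured gene in 15 lists (number of genes in brackets), with the list median as a bar and genes past the threshold in red. The 2 red points are Psat1 (1.44) and Slc38a2 (1.30) in the ATF4 list, and the glucocorticoid list has the median farthest from 0, at 0.61.

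Transcription factors known to induce Ddit4 or the sestrins did not pass the threshold (0 of 12). The ATF4 gene itself, Atf4, differed by 0.17 ± 0.16 on the log2 scale, the glucocorticoid receptor gene Nr3c1 by -0.10 ± 0.12 and Hif1a by -0.07 ± 0.15; all 3 were picked with their values already known. Epas1, which encodes the hypoxia factor HIF-2 alpha, had the smallest p of this list. It read 2071, 3399, 3185 and 4341 on the wild-type arrays and 11088, 7748, 5605 and 5214 on the knockout arrays (1.17 ± 0.27 SE; limma adjusted p = 0.0988). Foxo4 read 339 to 441 and 547 to 870 (0.72 ± 0.18; adjusted p = 0.107). The groups of both genes did not overlap.

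Target genes of the same inducers were read from 4 further lists. These were chosen with earlier results of these data known, so their counts and medians are a description. Of the 22 measured ATF4 targets 2 rose and 0 fell, beside 0.12% higher and 0.156% lower over all 10878 genes tested. The list median was 0.20, against -0.02 over all genes. Slc38a2, a neutral amino acid transporter, read 2848, 2388, 2285 and 3580 on the wild-type arrays and 8158, 7378, 6450 and 5320 on the knockout arrays (1.30 ± 0.18 SE; limma adjusted p = 0.0252). Psat1, an enzyme of serine synthesis, read 2332, 3021, 2375 and 2208 on the wild-type arrays and 10015, 8013, 5397 and 4666 on the knockout arrays (1.44 ± 0.23; adjusted p = 0.0441). On these probe sets every knockout array lay above every wild-type array for both genes. As for Ddit4, knockout 1 was the highest and knockout 4 the lowest of the knockout arrays. The pyruvate carboxylase ratio had the same order as both genes on knockout 1 to 4, and its part was not tested. Of 22 alternatives, 8 changed the result for Slc38a2 and 11 that for Psat1. Without an intensity trend, for example, the limma adjusted p was 0.0544 for Slc38a2 and 0.0724 for Psat1. The other tested probe set of Slc38a2 gave a log2 difference of 0.68, and that of Psat1 1.51.

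Glucocorticoid targets had the median farthest from 0 of the 15 lists, 0.61 over 18 genes, and none passed. Of the 18, 15 lay above 0, beside 46.5% of all genes tested. Tat, the tyrosine aminotransferase gene, had the smallest p (1.33 ± 0.26 SE; limma adjusted p = 0.0674), followed by the transcription factor Cebpd (1.58 ± 0.31; adjusted p = 0.0712). The medians of this list on knockout 1 to 4 were 0.96, 0.66, 0.69 and 0.02, so knockout 4, the knockout array lowest in Ddit4, lay at the wild-type mean. The list's median difference was 1.06 in replicates 1 and 2 and 0.28 in replicates 3 and 4. The pyruvate carboxylase ratio was 7.03, 4.93, 2.07 and 2.06 on knockout 1 to 4. The part of that ratio was not tested. Hypoxia inducible genes (median 0.18 over 16) and p53 targets (0.24 over 13) had 0 genes past the threshold, with P4ha2 (0.83 ± 0.20; limma adjusted p = 0.107) and Gadd45a (-0.61 ± 0.14; adjusted p = 0.0995) at the smallest p. Over all 15 lists, 184 genes were measured and the count that passed, 2, depended on single arrays. It was 15 without knockout 4, 0 when replicate 2 or 3 of either genotype was left out, and 1 when knockout 1, wild type 1 or wild type 4 was.

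The course of Ddit4 over the 8 arrays was compared with that of each named gene by Pearson correlation of log2(signal + 16). Genotype, replicate pair and the control 3'/5' ratios are shared by the points, and the values are a description. Over the 16 other tested probe sets r ran from -0.49, for Sesn1, to 0.64, for Deptor 1451348_at. The dim Deptor probe set 1459719_at, which was not tested, had 0.76. For deviations from the genotype means it ran from -0.83, for Sesn1 1454699_at, to 0.36, for Deptor 1419963_at. Of the Sesn2 probe sets 1451599_at had an r of 0.49, and of 0.26 without knockout 1 and knockout 3, the arrays farthest from the median of Ddit4.

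The 10 genes most like Ddit4, of 10878, had r between 0.979 and 0.986 over the 8 arrays. They were Acad11 and Ivd, which encode acyl-CoA dehydrogenases, Tat, the coenzyme Q synthesis gene Coq9, the complex I subunits Ndufc1 and Ndufs1, the mitochondrial Fastkd1, the pseudokinase gene Nrbp2, the ubiquitin ligase gene Ubr2, and Thap7. Acad11, at the top, read 3852, 4081, 3842 and 4295 on the wild-type arrays and 9220, 7368, 7852 and 5927 on the knockout arrays. Tat read 4878, 6387, 5868 and 6673 on the wild-type arrays and 24304, 15255, 15545 and 8501 on the knockout arrays. In both, knockout 1 was the highest and knockout 4 the lowest knockout array, as for Ddit4. The 10 genes were picked for this likeness, so such a course is part of the choice. Of the 17945 probe sets ranked, that of Ddit4 included, 339 (1.89%) had an r over 0.9. Without knockout 1 and knockout 3 the r of the 10 genes stayed between 0.949 and 0.992, but only 1 of them was still among the 10 highest. For Ubr2 and Thap7 another probe set of the gene had an r of 0.12 and 0.17.

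**Figure D5:**
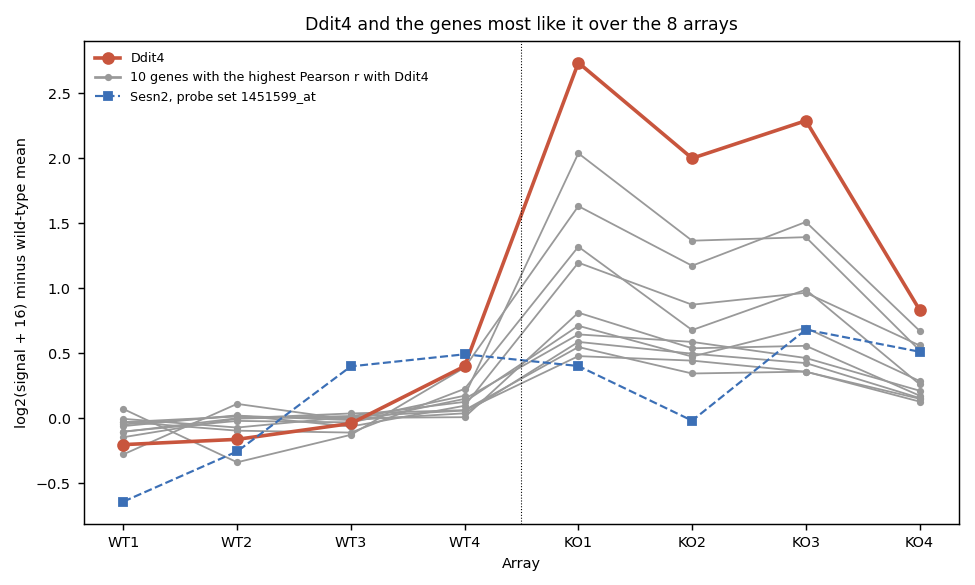
Log2(signal + 16) minus the wild-type mean on each array for Ddit4 (red), the 10 genes with the highest Pearson r with it (grey) and Sesn2 1451599_at (blue, dashed), with a dotted line between the genotypes. The grey lines share the peak of Ddit4 on knockout 1 and its low point among knockout arrays on knockout 4, and the Sesn2 line does not. The grey genes were picked for their r over these same arrays, so their shared course is part of the choice.

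With the genotype means taken out, the 10 genes most like Ddit4 had r between 0.962 and 0.975. They were Bpnt2, Kctd1, Mtarc1, Csrnp1, Acad11, the glycerophosphodiesterase gene Gde1, Pgpep1, Ptges2, Fastkd1 and the stress-response gene Gadd45b. Acad11 and Fastkd1 were in both lists. Gadd45b read 584, 477, 506 and 765 on the wild-type arrays and 774, 594, 658 and 290 on the knockout arrays. It was high on wild type 4 and knockout 1 and low on knockout 4, as Ddit4 was within each genotype, while its genotypes overlapped. Over the 8 arrays, with the genotype means left in, this Gadd45b probe set had an r with Ddit4 of 0.38 and another had -0.41. For Pgpep1 the listed probe set had 0.54 and another -0.82.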

How the data were processed

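Liver RNA of 4 wild-type and 4 knockout pups was measured on 1 array each. The deposited numbers are signal intensity values that the authors obtained with GCOS 1.2, scaled to 500, per the labels. With 2% trimmed at both ends, each array averaged 500.0. No detection calls were used. The number of arrays limits the precision.

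Probe sets were named from the platform annotation and updated by Entrez identifier through a RefSeq gene table: 34741 matched 1 gene, 204 kept the annotation's name, 932 had several genes and 9160 none, and 64 control probe sets were left out. Those that reached 200 on 4 or more arrays were compared as log2(signal + 16) with limma 3.58.1 in R 4.3.3 (lmFit, eBayes with intensity trend, two-sided, Benjamini-Hochberg over all 20395 tested). The fit was tested on simulated data. Tables and figures used Python 3.11.15. Named are all member probe sets, genes of the kinase complex, Rheb, S6 kinase and Ddit4 ligase lists, and the 10 genes most like Ddit4. In each other list up to 4 genes past the threshold are named, or else up to 2 by smallest p. Members and lists were chosen with earlier results of these data known. A list gene is read by its brightest tested probe set. The 12 cell type lists held 0 genes past the threshold. Their medians ran from -0.69 (T or natural killer cell, 2 genes measured) to 0.34 (pancreas, 1 gene measured). The skeletal muscle list had 0 measured genes. Alternatives covered pseudocounts, minimums, scalings, limma settings, blocks and arrays left out.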

Additional observations from a re-analysis of the deposited data

Results flagged for a closer look

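In 3 of the 50 groups of 4 arrays formed by the 25 member probe sets and the genotypes, 1 array lay far from the other 3 on the log2 scale, by Dixon's criterion (a gap over 0.829 of the range). Chance flags about 1 in 20 groups. Sesn3 1449303_at read 509.9 on knockout 2, below the other knockout arrays. Tsc2 1452105_a_at read 389.1 on wild type 1, and Akt1s1 1428158_at read 1457.3 on knockout 1, each the lowest of its genotype. Of the array checks, the Y-linked Eif2s3y read 1.3 on the array labelled wild type 4.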

How the results depend on the processing

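The Ddit4 difference, 1.96 on the log2 scale, moved by less than its spread between arrays in all 23 alternatives (1.38 to 2.55, and 1.71 to 2.34 with 1 array left out). The number of member probe sets past the threshold, 1, is a description of the choice, and nothing is read from it. It was 0 with a pseudocount of 1, a signal minimum of 100, no minimum or no intensity trend. It was also 0 with the replicate number as a block and in replicates 3 and 4 alone. With 1 array left out it was 0 to 1 (1 without knockout 4). Of the 15 pathway lists, 2 genes passed; there were 1 with a minimum of 100 and with none, 0 without an intensity trend and in replicates 3 and 4 alone, 4 with replicates 1 and 2 against 3 and 4 as a block, 6 with that block and without wild type 4 (chosen after seeing the data), and 0 to 15 with 1 array left out. With the replicate block the count was 2 as well, but of Psat1 and Bnip3, since Slc38a2 then had a limma adjusted p of 0.0527. The numbers were not taken as pairs: deviations of same-numbered arrays correlated by 0.22, 0.40 and 0.34 for numbers 1 to 3, the best match of each of these knockout arrays, but by 0.05 for number 4, where knockout 4 correlated best with wild type 3. Between the replicate pairs 2 member probe sets passed, and 0 with a minimum of 400, which Sesn2 1425139_at does not reach. With 1 array left out 1 to 3 passed (without wild type 2, Tsc2 passed in place of Deptor). Sesn2 1425139_at stayed past the threshold in all 16 alternatives that tested it. Wherever a minimum applied, it reached that minimum through replicates 3 and 4 alone, so it had to differ between the pairs. The interaction gave 0 calls in all 17. Of the 10 genes most like Ddit4, 2 were among the 10 highest by Spearman correlation, 1 without knockout 1 and knockout 3, 6 after quantile normalization and 4 without wild type 4 (chosen after seeing the data). Causes were not tested. Of 356 values of the other members, 6 moved by more than the spread, all in 1 replicate pair alone.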

Other observations

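For Akt1s1 1452684_at, as for Tsc2 and the brighter Akt1s1 probe set, replicate 1 was the lowest array of each genotype, at 270.5 in wild type and 314.6 in the knockout. For Sesn1 1433711_s_at it was the highest of each, at 1417.8 and 1192.0, and for Deptor 1428622_at likewise, at 2168.3 and 2330.3. No test was run on these values.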
